A study of Drosophila melanogaster with 4 samples.

Results

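FSH-only peaks are regions of euchromatin that carried an FSH peak and shared no base with any ASH1 peak. They were selected on the measured peak positions: sequences named chrM, chrU, chrUextra or ending in Het were left out, and each remaining FSH peak was compared with the ASH1 list. Of 8438 euchromatic FSH peaks, 574 (6.80%, 95% Wilson interval 6.28 to 7.36) were FSH-only and 7864 were shared with ASH1 over at least 1 bp. Since this comparison chose the regions, their number is a description and carries no test. Among the 574 regions, 196 (34.1%, 30.4 to 38.1) lay at most 1000 bp from an ASH1 peak and are called near, and the other 378 (65.9%, 61.9 to 69.6) lay farther away and are called far.

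FSH, the product of female sterile (1) homeotic, is the BET protein of Drosophila, with a pair of bromodomains that bind acetylated histone tails and an extraterminal domain. ASH1 is a histone H3 methyltransferase, and both belong to the trithorax group. This group maintains active states of homeotic and other developmental genes and acts genetically against the Polycomb group. The study favours a global coactivator role of ASH1 and FSH over a role limited to preventing Polycomb silencing. BET proteins are known for binding at promoters and enhancers of transcribed genes, and FSH exists as a short isoform, FSH-S, and a long one, FSH-L.

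The peaks come from ChIP-seq of S2-DRSC cells, a Drosophila line of embryonic origin that is used for RNAi screening and received no treatment here. Chromatin was precipitated with 2 antibodies against FSH and with 2 against ASH1, which gave 4 ChIP libraries in all. The sample labels call the FSH libraries FSH-S and FSH-S+L, whereas the protocol states that one antibody recognizes FSH-L only and the other the common part of both isoforms, so the list cannot be split by isoform. The aligned reads of both antibodies against 1 protein were merged before peaks were called against input, and therefore 1 list per protein exists, with 8824 FSH peaks and 10748 ASH1 peaks over all sequences.

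No replicate enters either list, and no difference described here has a replicate check. Intervals at 95% cover counting error only and treat peaks as independent. As the lists hold no read counts, the sequencing depth of each peak is unknown. The score of a peak was read as 10 times the negative log10 of its P value. A score of exactly 3100 was held by 17.7% of all FSH peaks, which have no order among themselves. Positions refer to BDGP Release 5. Score and length come from the call that defined the regions, so they are described and not tested.

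FSH-only peaks were mostly weak and short, but some were among the strongest of the list. Near peaks had a median score of 133 (interval 107 to 170, quartiles 73.8 and 344) and far peaks of 175 (147 to 208, quartiles 91.8 and 528), against 789 (757 to 830, quartiles 255 and 2345) for shared FSH peaks. The intervals of near and far medians overlapped, and both lay below that of the shared peaks. Scores below 100 were found for 38.8% of near peaks (76), 28.8% of far peaks (109) and 8.30% of shared peaks (653). The median length was 639.5 bp (609 to 692) for near, 593 bp (583 to 608) for far and 1066 bp (1045 to 1087) for shared peaks. FSH-only peaks covered 497.3 kb, 4.22% of the length covered by euchromatic FSH peaks, of which 196.1 kb belonged to near and 301.2 kb to far peaks.

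**Figure D1:**
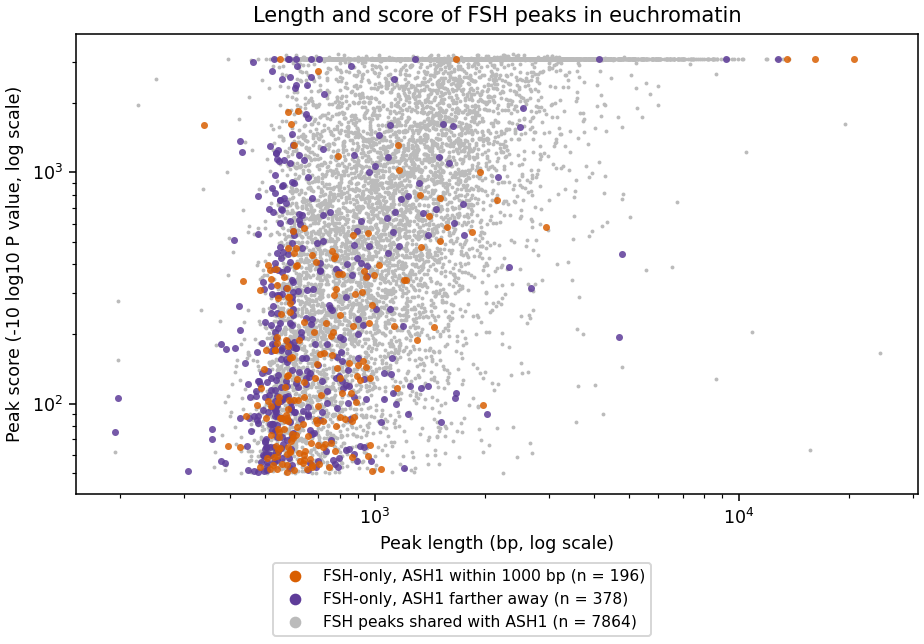
Length in bp on the horizontal axis and score on the vertical axis (both log scales) of each euchromatic FSH peak, with FSH-only peaks in orange (near, n = 196) and purple (far, n = 378) over shared peaks in grey (n = 7864). Most FSH-only peaks lie at the lower left, with medians of 133 and 175 against 789, while 15 lie on the line at 3100 or above and 5 of these are longer than 5000 bp.

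The share of FSH-only peaks went down through the score classes. It was 22.1% (185 of 838, 19.4 to 25.0) for FSH peaks scoring below 100, 13.7% between 100 and 200, 7.57% between 200 and 500 and 4.28% between 500 and 1000. Between 1000 and 3100 it was 2.52% (50 of 1982), and at 3100 or above it was 0.952% (15 of 1575, 0.578 to 1.57). By length, the share was 30.4% (62 of 204) for FSH peaks of at most 500 bp and 16.6% (311 of 1876) up to 700 bp. It reached its lowest value of 0.974% (7 of 719) between 2500 and 5000 bp and was 2.75% (5 of 182, 1.18 to 6.27) above 5000 bp. A longer peak can meet an ASH1 peak more readily, so length and overlap are not independent.

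Far peaks had a lower median length than shared peaks in each of the 6 score classes. The classes are wide and the top one holds the tied score of 3100, so strength was matched only roughly. The shorter lengths also follow in part from the definition, since a longer peak meets ASH1 more readily. Among peaks scoring from 1000 to below 3100, the median length was 615 bp for near (n = 9), 639 bp for far (n = 41) and 1350 bp for shared peaks (n = 1932). Near peaks were shorter than shared ones in 4 classes. The exceptions were the scores from 500 to below 1000, with medians of 1510 bp (n = 13) against 1042 bp for shared peaks, and those of 3100 or above, with 13558 bp (n = 5) against 2141.5 bp. In total, 51 far peaks (13.5%) and 14 near peaks (7.14%) scored 1000 or more, against 3492 shared peaks (44.4%). Of the 51 strong far peaks 36 were shorter than 1000 bp (70.6%), against 23.2% of the strong shared peaks. The 51 had a median length of 645 bp and a median distance of 6654 bp from ASH1.

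Of the 378 far peaks, 10 scored 3100 or above, and 9 of these were tied at 3100. Described next are the highest and the 4 of the tie that lay farthest from ASH1, so the distances of these 4 follow from that choice. By value the highest score, 3103, belonged to chr2L:13332669-13333249, a peak of 581 bp that lay 11431 bp from the nearest ASH1 peak. That ASH1 peak was weak (score 121) and overlapped no FSH peak, and the nearest other FSH peak, 15954 bp away, was itself FSH-only with a score of 118. At chr2R:19091248-19092535 an FSH peak of 1288 bp with a score of 3100 lay 47950 bp from ASH1 and 106203 bp from any other FSH peak. The peak at chr3R:8741189-8741794 (606 bp, score 3100) was 43427 bp from ASH1, and the one at chrX:18813068-18813734 (667 bp, score 3100) was 25221 bp from it. The last, at chr2L:9271082-9271659 (578 bp, score 3100), was 17623 bp from an ASH1 peak scoring 2117. The 5 other far peaks with a score of 3100 lay closer to ASH1, at 1607, 3562, 7111, 8295 and 8343 bp. In all, 83 far peaks (22.0%) had no other peak of either protein within 10000 bp, and 37 (9.79%) had none within 20000 bp. Shared peaks touch ASH1 by definition, so these counts have no counterpart among them.

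The 3 regions most distant from ASH1 were not the strongest. At 105459 bp, chr3L:10071576-10072110 (535 bp, score 1211) was the farthest. It was followed by chrX:11133079-11133528 (450 bp, score 87.0) at 83782 bp and by chrX:17912433-17913018 (586 bp, score 409) at 65668 bp. The nearest ASH1 peaks of these 3 regions were themselves strong, with scores of 3072, 3100 and 2385, and each overlapped an FSH peak.

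Distances to ASH1 ran without a gap across the limit of 1000 bp. The median gap was 340 bp (quartiles 152 and 641.5, range 1 to 994) for near peaks and 5198.5 bp (quartiles 2326 and 11867, range 1010 to 105459) for far peaks. Between 1000 and 2000 bp there were 82 peaks, between 2000 and 5000 bp 103, between 5000 and 10000 bp 83, between 10000 and 20000 bp 64, between 20000 and 50000 bp 40, and beyond that 6. Median scores in the classes from 100 bp to 50000 bp stayed between 116 and 196. Beyond 50000 bp the median was 515, with scores from 87.0 to 1211, but this class held only 6 peaks. The 25 peaks closer than 100 bp had a median score of 297 and a median length of 829 bp, and 4 of the 5 highest-scoring near peaks were among them.

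**Figure D2:**
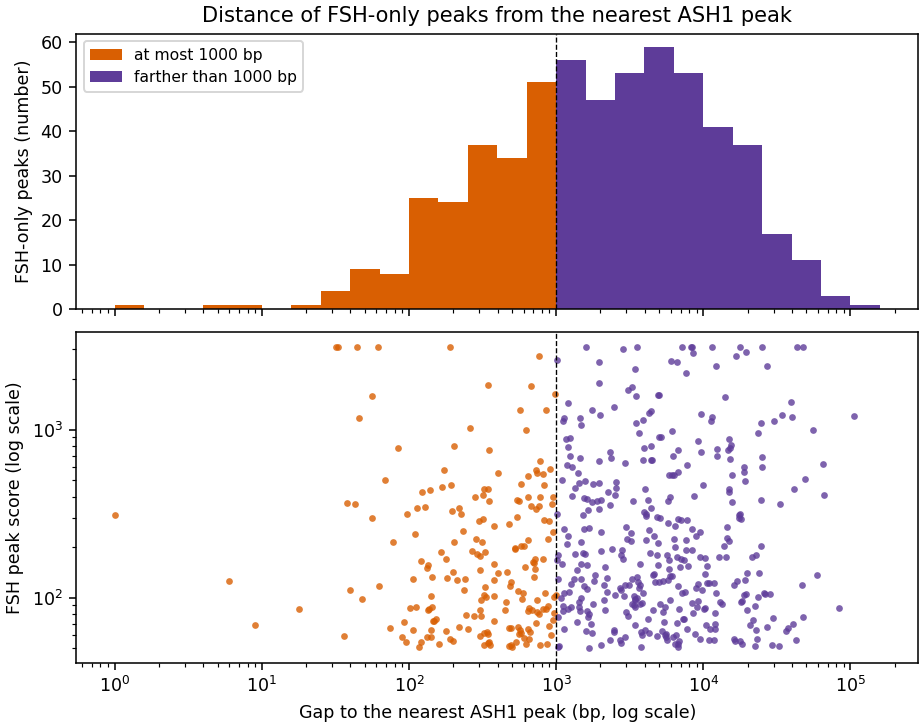
Number of FSH-only peaks (upper panel) and score of each of them (lower panel, log scale) against the gap in bp to the nearest ASH1 peak (log scale), near peaks in orange and far peaks in purple, with a dashed line at 1000 bp. The gaps run from 1 to 105459 bp with no break at the line, and scores from about 50 to 3100 occur on both sides of it.

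Close to the limits, the classes differed by a few bases. The smallest gap was 1 bp, between chr2L:3355125-3355607 (score 310) and ASH1, followed by 6 bp for chr3L:15001861-15002773 (score 127) and 9 bp for chr3L:18819084-18819673 (score 69.0). On the other side, the shared peak with the smallest overlap, chr2R:14295048-14295857 (score 119), had 8 bp in common with ASH1, and the next ones 43 bp. Within 50 bp of the limit there were 13 FSH-only peaks and 3 shared peaks. At the limit of 1000 bp, the last near peak (chr3L:16193563-16194160, score 104) lay 994 bp from ASH1. The first far peaks lay 1010 bp (chr2R:18930228-18931032, score 167) and 1011 bp (chr3L:9817243-9817826, score 2588) away.

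Most near peaks lay beside a stronger FSH peak that was shared with ASH1. For 174 of 196 near peaks (88.8%, 83.6 to 92.5) the nearest ASH1 peak overlapped another FSH peak, compared with 81.9% of all euchromatic ASH1 peaks. A second FSH peak lay within 1000 bp of 177 near peaks (90.3%, 85.4 to 93.7), at a median gap of 270 bp over all 196, whereas 36.4% of the shared FSH peaks had another FSH peak within that distance. The neighbouring FSH peak was a shared one for 186 near peaks and scored higher than the near peak in 157 cases, lower in 35 and equal in 4. The near peaks had a median score of 133, against 1040 for these neighbours and 789 for all shared FSH peaks. The closeness of other FSH peaks follows in part from the definition. Near peaks lie within 1000 bp of ASH1, and 81.9% of euchromatic ASH1 peaks overlap FSH. Near peaks were also weaker than shared peaks as a whole, so a stronger neighbour is in part a matter of that difference. At 32 near peaks, ASH1 peaks lay within 1000 bp on both sides. In the remaining 22 cases (11.2%) the nearest ASH1 peak overlapped no FSH peak, so that ASH1 and FSH peaks lay side by side without touching. The highest-scoring of these was chr3L:8448756-8449305, an FSH peak of 550 bp with a score of 3100, which was separated by 32 bp from an ASH1-only peak scoring 386. A peak of 1665 bp at chr3L:832058-833722, also with a score of 3100, lay 44 bp from an ASH1 peak of the same score, and here the neighbouring shared FSH peak was the weaker one (score 194). The number of near peaks rests on keeping closely spaced peaks apart. When peaks of each list with gaps under 1000 bp were merged first, 21 near and 342 far peaks were counted.

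Far peaks were set apart from FSH as well as from ASH1. Only 50 of 378 (13.2%, 10.2 to 17.0) had another FSH peak within 1000 bp, against 90.3% of near peaks and 36.4% of shared peaks. The definition contributes to this contrast, since a far peak cannot lie close to a shared FSH peak unless that peak extends well beyond its ASH1 partner. The nearest other FSH peak was a median of 4465 bp away, against 1805 bp for shared peaks. It was a shared peak in 297 cases and another FSH-only peak in 81 (21.4%, 17.6 to 25.8). For near peaks the nearest was FSH-only in 5.10%, and of all euchromatic FSH peaks 6.80% were FSH-only. The definition bears on this share too. The nearest other FSH peak scored higher than the far peak in 254 cases and lower in 124. The nearest ASH1 peak overlapped an FSH peak for 310 of 378 (82.0%, 77.8 to 85.6), close to the 81.9% of all ASH1 peaks, and its median score was 645, compared with 851 for all euchromatic ASH1 peaks. No other peak of either list lay within 2000 bp of 258 far peaks and within 5000 bp of 159. These counts have no counterpart among shared peaks, which touch ASH1 by definition. The number of far peaks depended on weak ASH1 peaks, since it was 615 when ASH1 peaks scoring below 100 were left out.

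Most FSH-only peaks formed no run with one another. As 6.80% of euchromatic FSH peaks were FSH-only and any ASH1 peak ends a run, this count does not measure how far they cluster. Counting as a run those with gaps of at most 5000 bp and no ASH1 peak between them, 494 stood alone, 74 formed 37 pairs and 6 formed 2 runs of 3. One run, chr2R:2834106-2836111, held peaks scoring 265, 92.4 and 94.1 within 2006 bp, at 12939 bp or more from ASH1. The other, chrX:18587108-18596326, held peaks scoring 138, 55.6 and 183 over 9219 bp.

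A small set of FSH-only regions was broad. Of 182 FSH peaks above 5000 bp, 5 had no base in common with ASH1, all with a score of 3100. The longest, chr3L:8668285-8688945, extended over 20661 bp and was the second longest FSH peak in euchromatin. An ASH1 peak of 5891 bp (score 3100) began 62 bp beyond its right end, and a shared FSH peak of 11887 bp began 17 bp beyond it. That ASH1 peak lay at the start of the right one of these 2 long FSH peaks. At chr3L:16028210-16044414 (16205 bp) the nearest ASH1 peak began 190 bp to the right, whereas on the left ASH1 was 22840 bp away. At chr3R:4629744-4643301 (13558 bp) it began 33 bp to the right, and 1215 bp separated the region from ASH1 on the left. In all 3 cases the ASH1 peak next to the right end scored 3100.

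The other 2 broad regions were far from ASH1. The peak at chr3R:8836028-8848847 (12820 bp) lay 7111 bp from the ASH1 peak on its right and 11607 bp from the one on its left. The peak at chr3R:11827739-11836957 (9219 bp) lay 8343 bp from ASH1 on the left and 37073 bp from it on the right. Its left neighbour was an ASH1 peak of 10762 bp with a score of 3166, together with an FSH peak of 10869 bp that scored only 204. The other 177 long FSH peaks were covered by ASH1 over at least 19.4% of their length, with a median of 92.5%. In the ASH1 list, 9 of 93 peaks of that length had no FSH.

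**Figure D3:**
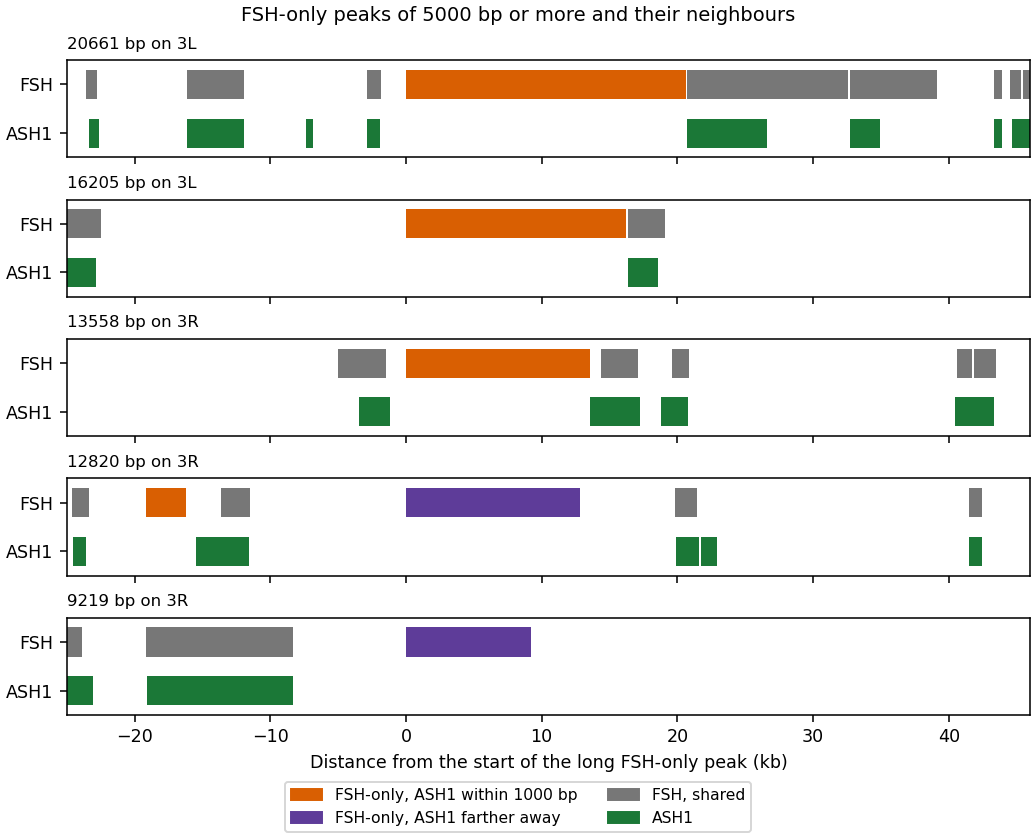
The 5 FSH-only peaks longer than 5000 bp with all FSH peaks (upper row of each panel) and ASH1 peaks (lower row) around them, against the distance in kb from the start of the long peak. Orange and purple mark near and far FSH-only peaks, grey marks shared FSH peaks and green marks ASH1. In the upper 3 panels an ASH1 peak begins 62, 190 and 33 bp beyond the right end, and in the lower 2 the nearest ASH1 peak is 7111 and 8343 bp away.

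Chromosome X carried more FSH-only peaks than the large autosomal arms. On X 170 of 1482 FSH peaks (11.5%, 9.95 to 13.2) were FSH-only, against 390 of 6850 (5.69%, 5.17 to 6.27) on 2L, 2R, 3L and 3R together. Single arms ranged from 4.17% (69 of 1656, 3.31 to 5.24) on 2R to 6.64% (114 of 1716, 5.56 to 7.92) on 3L, so that the interval of X lay above that of each of these arms. The difference was seen for near peaks (4.59% on X, against 1.36% to 2.74% on the arms) and for far peaks (6.88%, against 2.54% to 4.97%). For far peaks the interval of X (5.70 to 8.29) overlapped that of 2L, whose upper end was 6.16.

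FSH peaks on X were also weaker, with a median score of 557 against 717 to 849 on the large autosomal arms. Within peaks scoring below 200, 26.0% (104 of 400, 21.9 to 30.5) were FSH-only on X and 14.6% (213 of 1456, 12.9 to 16.5) on the arms. From 200 upwards the shares were 6.10% (66 of 1082, 4.82 to 7.69) on X and 3.28% (177 of 5394, 2.84 to 3.79) on the arms. X thus stayed higher than the arms together within both score classes. Against single arms, the interval of X overlapped that of 2L below 200 (14.7 to 22.9) and that of 3L from 200 (3.10 to 5.21). ASH1 peaks on X were weaker too, with a median score of 509 against 857 to 1009 on the arms. The share of ASH1 peaks without FSH was 21.9% on X and 16.2% to 18.3% on the arms. The part of these weaker scores in the share on X was not tested.

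**Figure D4:**
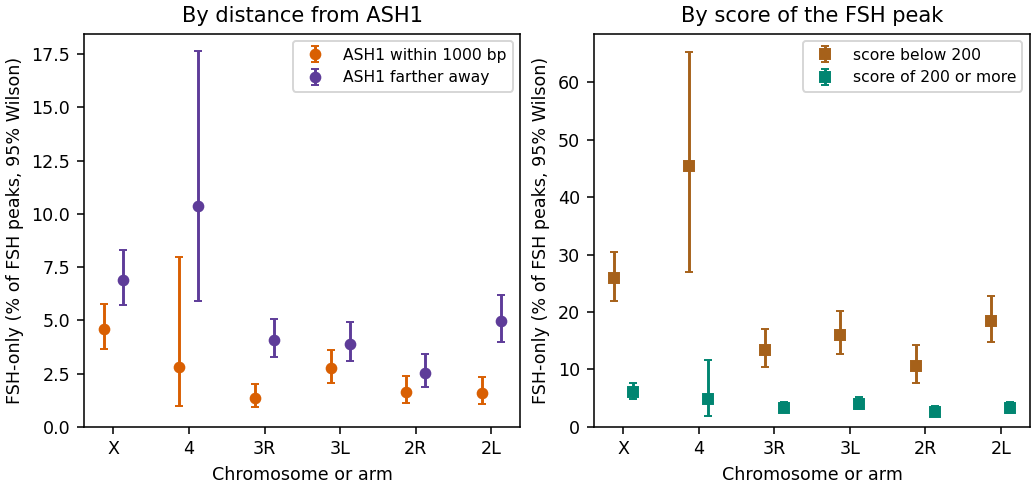
Share of FSH peaks that were FSH-only on each chromosome or arm, in % with 95% Wilson intervals, split by distance from ASH1 (left panel, near in orange and far in purple) and by score of the FSH peak (right panel, below 200 in brown and from 200 in green). X lies at 4.59% for near and 6.88% for far peaks, and the wide intervals of chromosome 4 rest on 106 FSH peaks.

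Chromosome 4, the small and largely heterochromatin-like dot chromosome, had 14 FSH-only peaks among 106 (13.2%, 8.03 to 21.0). Of these 11 were far and 3 near, and their scores ran from 51.2 to 614, although the median of all FSH peaks on this chromosome was high (1499). All 14 had as nearest ASH1 peak one that overlapped FSH. Most ASH1 peaks of this chromosome did so, as only 12.1% of its 116 ASH1 peaks overlapped no FSH peak. The strongest were chr4:445143-445727 (score 614, 7693 bp from ASH1), chr4:110273-111167 (score 558, 18870 bp) and chr4:466481-467151 (score 441, 324 bp). The last formed a pair with chr4:467194-467853 (score 130), 42 bp farther on.

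Taken over all chromosomes together, the share of FSH-only peaks varied little with distance from the centromere. In 5 equal sections of each arm counted from the centromere, the share was 7.37%, 6.50%, 6.62%, 6.85% and 6.71%, with overlapping intervals. Of 123 windows of 1 Mb with FSH peaks, 117 held an FSH-only peak, with a median of 4. The maximum of 12 was reached in 5 windows, which are named here after their values were seen. Among them, the 1st Mb of X had 12 FSH-only peaks of 27 FSH peaks (44.4%), and the 23rd Mb of 2L had 12 of 42 (28.6%). The others held more FSH peaks and had lower shares. These were the 1st Mb of chromosome 4 (12 of 78, 15.4%), the 12th Mb of X (12 of 90, 13.3%) and the 18th Mb of X (12 of 80, 15%).

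In the bithorax complex, the cluster of the Hox genes abd-A, Abd-B and Ubx on 3R, FSH-only peaks were discrete and some were strong. The study describes the genes of this cluster as silent in S2-DRSC cells. Positions of genes and domains were read by eye from the browser view of the study. In a stretch that contains this view, 5 of 20 FSH peaks were FSH-only, against 6.80% in euchromatin as a whole, and all 15 ASH1 peaks were shared. The 5 regions measured 519 to 652 bp, against a median of 824 bp for the 15 shared FSH peaks. The region at chr3R:12783378-12783988 lay in the iab-8 domain, a regulatory domain of Abd-B. It scored 2868, which exceeded the score of the nearest shared peak (2256, 8540 bp away), and it was 8542 bp from ASH1. The region at chr3R:12574110-12574761 lay in the bxd/pbx domain, which regulates Ubx. It scored 2374 at a distance of 12278 bp from ASH1, where the nearest FSH peak scored 436. Only 5 of the 15 shared peaks scored higher than 2374, and the median of the shared peaks was 894.

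The domains that regulate abd-A held weaker ones. In iab-3, chr3R:12660295-12660813 scored 219 at 4078 bp from ASH1, and in iab-4, chr3R:12682687-12683207 scored 859 at 9262 bp. The only near region of the complex, chr3R:12746014-12746592 (score 289), lay beside Fab-8, a boundary element with an adjoining Polycomb response element. It was 831 bp from an ASH1 peak scoring 184, and a shared FSH peak scoring 894 lay 734 bp away.

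**Figure D5:**
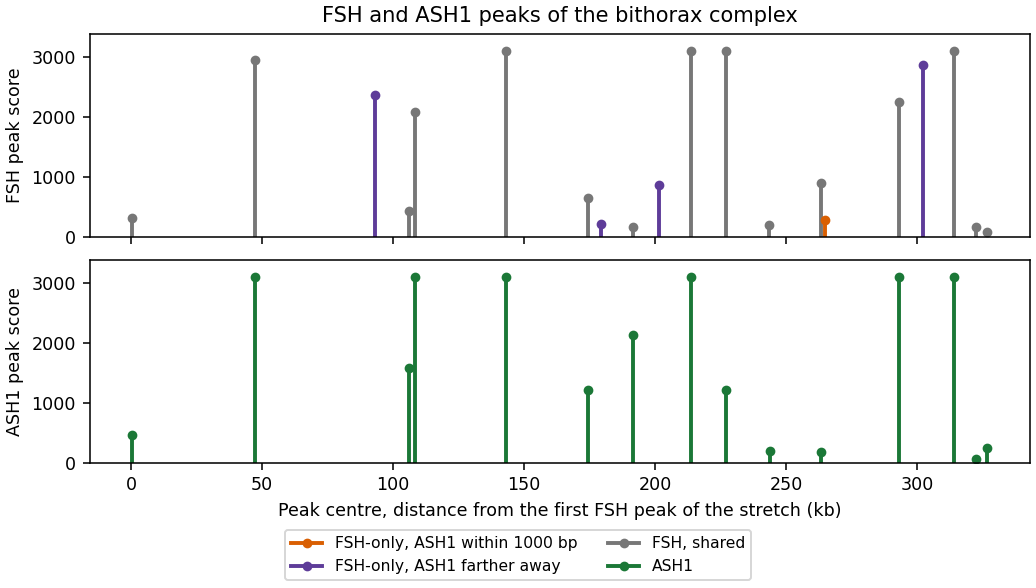
Score of each FSH peak (upper panel) and ASH1 peak (lower panel) across the bithorax complex against the distance in kb of the peak centre from the first FSH peak of the stretch, with near FSH-only peaks in orange, far ones in purple, shared FSH peaks in grey and ASH1 in green. The purple peaks scoring 2374 and 2868 rise among shared peaks without an ASH1 peak under them, and the orange one scoring 289 stands next to a shared peak.

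At H15, a gene for a T-box transcription factor that the study describes as repressed in these cells, the region differed in strength from its neighbour. The FSH-only peak chr2L:5404796-5405341 (546 bp, score 107) lay 599 bp from an ASH1 peak scoring 3100 and 613 bp from a shared FSH peak that also scored 3100. It was the weaker of the only 2 FSH peaks of the browser view. Genes at the other regions are not named here, since an annotation of Release 5 was not used, and for the same reason no sequence of the regions is given.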

How the data were processed

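ChIP-seq libraries of S2-DRSC cells (2 for FSH, 2 for ASH1) were grouped by protein. Per the labels and methods of the study, the authors aligned reads to BDGP Release 5 with Bowtie 0.12.7, placing a read with several matches at 1 of them, which can affect peaks in repeats. They merged both antibodies per protein with SAMtools 0.1.9 and called peaks against input with MACS 1.4.0 with a P value threshold of 1e-05. The deposited lists give positions and 1 score per peak. The files do not name the score, and its lowest values lie just above 50, which fits 10 times the negative log10 of the threshold.

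Overlaps, gaps between nearest ends, shares with Wilson intervals and medians with order-statistic intervals were calculated from the lists with pandas 2.3.3, numpy 2.4.6 and scipy 1.17.1 under Python 3.11.15, and plotted with matplotlib 3.10.9. A gap of 1000 bp separates near from far. All 4 counts compared with BEDTools 2.31.1 were equal, and all 3000 simulated peaks fell into their class. No tests were run, as libraries were pooled before deposit.

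Regions were named by rule: the 5 highest-scoring near and far peaks (ties by larger distance), the 3 farthest from ASH1, the longest runs, those in the bithorax and H15 views, those at each limit, and those on chromosome 4. The third place among runs was tied between 37 pairs, which were not named. Peaks longer than 5000 bp and windows of 1 Mb were added after their values had been seen. The regions and lists were chosen with earlier results of these data known. Alternatives were other score minimums, overlap rules, distances, sequences and merging of neighbours. Gene expression, histone marks and distances to start sites were not analysed here.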

Additional observations from a re-analysis of the deposited data

How the results depend on the processing

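Of 104 values recalculated under 10 alternatives, 62 stayed within the interval of the reported value (for counts, within 1.5 times of it) and 42 moved more. Leaving out chromosome 4 moved none. No paired analysis was possible because the libraries of each protein were pooled before peaks were called, which also prevented leaving out a library.

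With ASH1 peaks of score 100 or more only, the FSH-only share was 10.8% (17.3% on X), with 296 near and 615 far peaks, a median far length of 611 bp, and 93.6% of near peaks beside a shared ASH1 peak. With FSH peaks of score 100 or more only, it was 5.12% (8.75% on X), with 120 near peaks, median scores of 289 (near) and 314 (far), a median near length of 707.5 bp and 79.2% of near peaks beside a shared ASH1 peak. With both minimums, it was 8.34% (13.9% on X), the near share of FSH-only peaks was 28.7%, and the medians were 281 and 739.5 bp (near) and 321 and 630.5 bp (far). Requiring an overlap of 50% of both peaks gave 15.4% (24.0% on X), 919 near peaks (70.9%), a median near score of 650 and length of 1264 bp, and 42.9% beside a shared ASH1 peak; most of these near peaks touch ASH1. Counting gaps under 200 bp as shared gave 6.06%, of which 26.0% were near. Including heterochromatic sequences gave 7.65%. Merging neighbours within 1000 bp gave 5.43% (8.17% on X), 21 near peaks (5.79%) with a median score of 182, 28.6% of them beside a shared ASH1 peak, and 0.292% of far peaks with another FSH peak within 1000 bp, which merging removes by construction. A near limit of 500 bp gave 123 near peaks (21.4%) and 25.3% of far peaks with another FSH peak within 1000 bp, and a limit of 2000 bp gave 48.4% and 9.46%. The causes of the other shifts were not tested. Apart from the 615 with the ASH1 minimum, the number of far peaks ranged from 269 to 469. The numbers of near peaks not given above ranged from 133 to 278.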

Other observations

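Outside euchromatin, on the heterochromatic, unplaced and mitochondrial sequences that the selection left out, 101 of 386 FSH peaks (26.2%, 95% Wilson interval 22.0 to 30.8) shared no base with an ASH1 peak. Within euchromatin, 34.1% of the FSH-only peaks lay at most 1000 bp from ASH1, against 27.4% (516 of 1883, 25.4 to 29.5) of the ASH1-only peaks from FSH. The ASH1 list is the denser one, with 10405 peaks against 8438 for FSH, so these shares are not directly comparable. The ASH1-only peaks made up 18.1% (17.4 to 18.8) of 10405 ASH1 peaks, and their median score was 134 for the 516 near FSH and 159 for the other 1367.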
